A study of Mus musculus with 40 samples.

Results

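The genes described here encode the enzymes that break down tryptophan along the kynurenine pathway and carry its product, and nicotinic acid, into NAD. They are Tdo2, Ido2, Afmid, Kmo, Kynu, Haao, Acmsd, Qprt, Naprt and Nnmt. Members were chosen by gene symbol and matched to the Ensembl identifiers of the count tables. Earlier results of these data were known when they were chosen. All 10 passed the filter on low counts and are 10 of the 15373 genes tested, out of 55359 listed.

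RNA-Seq was run on the livers of 40 male C57BL/6 mice, with 5 mice in each of 8 groups. The mice received TCDD, a dioxin that activates the aryl hydrocarbon receptor (AhR), by oral gavage in sesame oil, or sesame oil alone (vehicle). Doses per gavage, from the highest, were 30, 10, 3, 1, 0.3, 0.1 and 0.03 μg/kg, with 7 gavages at intervals of 4 days in a study of 28 days, from 30 to 58 days of age according to the labels. All mice came from 1 supplier, the labels name no engineered allele, and dose alone separates the groups in them. The same 5 vehicle mice served for all doses, so the comparisons are not independent of one another.

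In hepatocytes most tryptophan that is not used for protein is oxidised. The dioxygenases TDO2 and IDO2 open its indole ring, AFMID removes a formyl group to give kynurenine, and KMO, KYNU and HAAO convert kynurenine stepwise to aminocarboxymuconate semialdehyde, ACMS. At this branch point ACMSD draws ACMS toward complete oxidation, while ACMS that escapes closes by itself to quinolinic acid, which QPRT turns into the first nucleotide of de novo NAD synthesis. NAPRT makes the same nucleotide from nicotinic acid, and NNMT methylates nicotinamide, the breakdown product of NAD, and so withdraws it from reuse.

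Libraries held 15.5 M to 21.0 M counts in genes, with a median of 17.5 M. Levels are given as CPM, the counts of a gene for each 1e+06 counts of its library, after TMM scaling of the library sizes, and SD is between mice. Cyp1a1, a cytochrome P450 that AhR switches on, rose from 1.66 ± 0.480 CPM in vehicle to 5767 ± 666 CPM at 30 μg/kg (SD, n = 5), and all 5 AhR targets examined were higher at that dose. The liver label was checked with 6 hepatocyte markers, none of which was at 0 in vehicle or at 30 μg/kg. Titles of the libraries are numbered through all doses once up to 27, which gives 19 libraries called run 1 here, and again from 28, which gives 21 libraries called run 2. The labels do not say what this numbering marks.

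Of the members, 6 have a promoter in the RefSeq table used (GRCm38.p6), namely Tdo2, Afmid, Kmo, Haao, Acmsd and Qprt. Ido2, Kynu, Naprt and Nnmt are not in it. The core of the dioxin response element to which activated AhR binds, GCGTG on either strand, was found in 3 of the 6 promoters, each of 300 bases from 250 before to 50 after the start of the gene. It lay 194 bases before the start of Tdo2, 137 bases before that of Haao, and at base 6 after that of Acmsd. The first bases after the start used for Afmid lie in no Afmid transcript of GENCODE M21. This window may therefore not be the promoter of Afmid in that annotation. Among all 32851 promoters of this length 32.4% held the core. The longer form TNGCGTG, which contains the core, was in none of the 6 and in 5.07% of all promoters. Shown here, 5′ to 3′ on the strand of the gene, are the 250 bases before the start of both genes with an upstream match, which differ in how far they fell with TCDD. The core, or its reverse complement, is in capitals. The Tdo2 sequence is the minus strand of chr3:81975729-81975978 and the Haao sequence the minus strand of chr17:83846791-83847040.
Tdo2 upstream: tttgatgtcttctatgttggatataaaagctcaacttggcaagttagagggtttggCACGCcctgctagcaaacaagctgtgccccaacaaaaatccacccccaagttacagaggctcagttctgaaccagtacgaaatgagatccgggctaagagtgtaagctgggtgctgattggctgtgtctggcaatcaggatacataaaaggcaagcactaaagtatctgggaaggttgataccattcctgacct
Haao upstream: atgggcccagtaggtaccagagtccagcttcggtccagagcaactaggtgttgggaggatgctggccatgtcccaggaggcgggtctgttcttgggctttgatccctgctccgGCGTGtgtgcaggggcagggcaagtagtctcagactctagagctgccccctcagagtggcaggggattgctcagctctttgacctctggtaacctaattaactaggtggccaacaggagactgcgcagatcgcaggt
These matches describe the letters of the window and are not evidence of AhR binding.

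At its highest dose TCDD repressed 8 of the 10 members, induced the methyltransferase Nnmt, and gave no call for the branch enzyme Acmsd. A gene was called when its fold change was at least 1.5 and its p from the quasi-likelihood test of edgeR, after Benjamini-Hochberg adjustment over all genes, was under 0.05. No member was called at 0.03, 0.1, 0.3 or 1 μg/kg, where 0.0195%, 0.0976%, 0.468% and 2.78% of all genes tested were called in either direction. At an unadjusted p under 0.05 the counts of members at these doses were 1, 0, 0 and 2, beside 393, 665, 1127 and 2319 of all genes, and DESeq2 and limma also called 0. At 3 μg/kg 1 member was lower, against 2.22% of all genes. At 10 μg/kg 6 of the 10 were lower, against 8.13%. At 30 μg/kg 8 were lower and 1 was higher, against 18.9% and 23.2% of all genes in these directions. Scaling to total counts alone turned the 2909 lower and 3567 higher genes at this dose into 1559 and 6402, and the members into 7 lower and 2 higher. The median log2 fold change of the members was -0.73 at 10 μg/kg and -2.01 at 30 μg/kg, and that of all genes tested was 0.01 and 0.03. These medians depend on the scaling. With total counts alone they were -0.53 and -1.55 for the members and 0.22 and 0.52 for all genes. A downward slope over the ordered dose steps had an adjusted p under 0.05 in 7 members, against 26.1% of all genes.

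**Figure D1:**
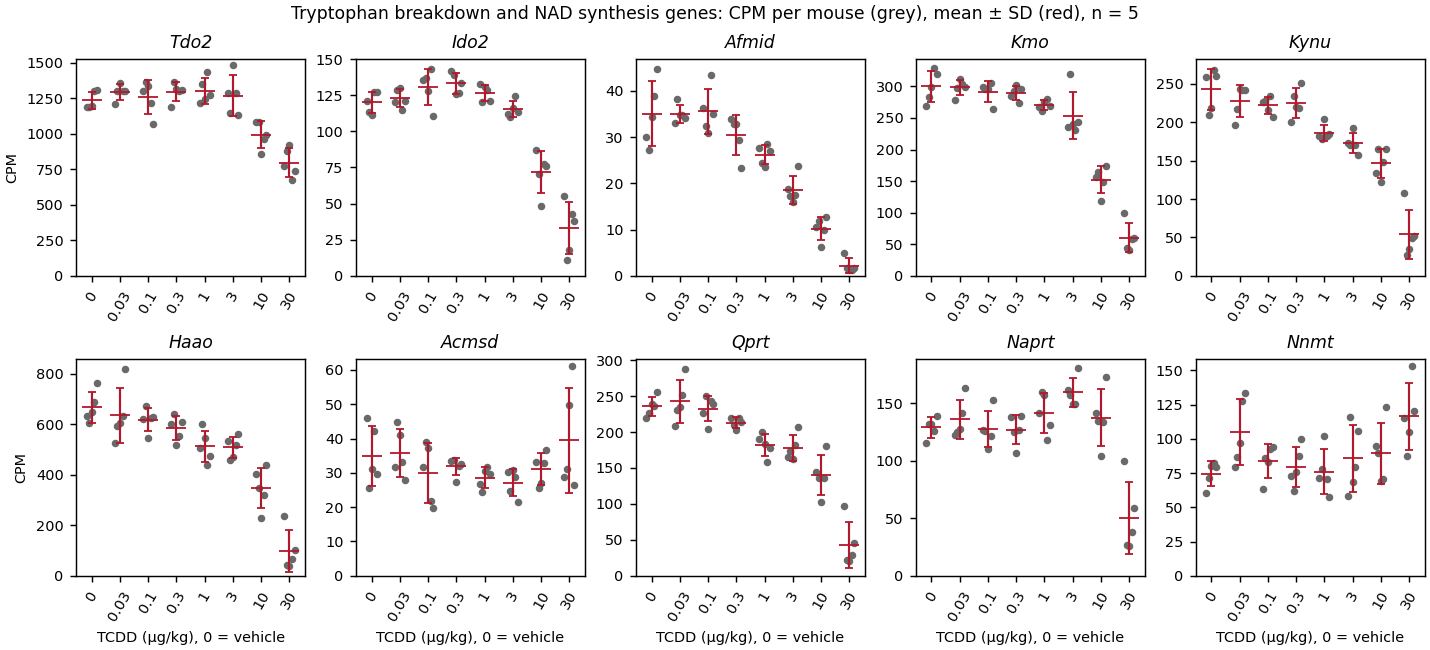
CPM (vertical axis, linear, from 0) of each member in each of the 40 mice (grey) by TCDD dose in μg/kg, where 0 is vehicle, with the mean and SD of each group in red (n = 5). Afmid is called lower from 3 μg/kg, Ido2, Kmo, Kynu, Haao and Qprt from 10 μg/kg and Tdo2 and Naprt at 30 μg/kg. Kynu, Haao and Qprt lie below vehicle without overlap from 1 μg/kg, but are not called at 1 or 3 μg/kg. The share of all genes without overlap was not counted. Acmsd overlaps vehicle at every dose.

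At the first step, Tdo2 had the smallest fold change among the 8 repressed members. Tdo2 (ENSMUSG00000028011), the hepatic dioxygenase, measured 1192, 1187, 1199, 1302 and 1306 CPM in vehicle. It measured 1081, 1081, 856, 965 and 989 CPM at 10 μg/kg, and 772, 880, 924, 672 and 736 CPM at 30 μg/kg. Every mouse at 10 and at 30 μg/kg lay below every vehicle mouse, and the means were 1237 ± 61.1, 994 ± 93.6 and 797 ± 104 CPM (SD, n = 5). Its log2 fold change at the highest dose, -0.63 ± 0.09 (SE), was a 1.55-fold repression with an edgeR-adjusted p of 2.77e-07. This is just past the fold threshold, and at 10 μg/kg the change of -0.32 ± 0.09 (adjusted p = 0.0076, edgeR) did not reach it. The call at 30 μg/kg was lost with libraries scaled to total counts alone (-0.13) in run 1 alone (-0.54) and with a filter on a mean of at least 50 counts (-0.58), and kept in run 2 alone (-0.77).

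Ido2 (ENSMUSG00000031549), the second dioxygenase of this step and the less abundant, was repressed at both 10 and 30 μg/kg. Its levels were 121, 114, 111, 128 and 127 CPM in vehicle, 87.0, 70.6, 48.2, 77.4 and 76.3 CPM at 10 μg/kg, and 55.5, 11.3, 18.2, 42.7 and 37.9 CPM at 30 μg/kg. The groups at 10 and at 30 μg/kg did not overlap vehicle, and the mice at 30 μg/kg spread over a wider relative range than those of vehicle. From a mean of 120 ± 7.47 CPM (SD, n = 5) it fell to 71.9 ± 14.5 at 10 μg/kg and 33.1 ± 18.2 at 30 μg/kg. These log2 fold changes were -0.74 ± 0.21 and -1.86 ± 0.21 (SE), with edgeR adjusted p of 0.00483 and 1.41e-09. Ido1, the interferon-inducible dioxygenase of immune cells, had 12 counts in all 40 libraries together and was not tested.

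Afmid (ENSMUSG00000017718), the formamidase that releases kynurenine, was the only member called at 3 μg/kg and had the largest fold change of the members at 3, 10 and 30 μg/kg. Vehicle mice measured 29.9, 27.1, 34.4, 39.0 and 44.7 CPM, and mice at 3 μg/kg measured 18.9, 17.2, 15.9, 17.4 and 23.7 CPM. At 10 μg/kg the levels were 10.5, 12.0, 6.15, 9.89 and 12.7 CPM, and at 30 μg/kg 5.00, 1.71, 1.33, 1.19 and 1.64 CPM. No group from 3 μg/kg upward overlapped vehicle, and none of these 3 groups overlapped another. The log2 fold changes were -0.91 ± 0.21, -1.77 ± 0.21 and -4.02 ± 0.24 (SE) at 3, 10 and 30 μg/kg, with edgeR adjusted p of 0.00273, 2.86e-08 and 1.44e-16. The last is a 16.3-fold repression, from 35.0 ± 7.03 to 2.17 ± 1.59 CPM (SD, n = 5), and its lowest library still held 30 counts. In run 1 alone the change at 3 μg/kg was -0.83 (adjusted p = 0.0504, edgeR), so that call was not kept there. In the reference annotation Afmid shares 1566 of its 3539 exon bases with Gm20708 on the same strand, where a read would be ambiguous between both, and Gm20708 is listed at 0 counts in every library.

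Kmo, Kynu and Haao, the enzymes that carry kynurenine to ACMS, were each called lower than vehicle at 10 μg/kg and fell further at 30 μg/kg. Kmo (ENSMUSG00000039783), a mitochondrial hydroxylase, measured 269, 283, 299, 329 and 320 CPM in vehicle. It measured 157, 164, 118, 149 and 174 CPM at 10 μg/kg, and 99.4, 43.7, 40.5, 58.3 and 60.1 CPM at 30 μg/kg. The 3 sets did not overlap. Its log2 fold changes of -0.98 ± 0.14 and -2.31 ± 0.14 (SE) had edgeR adjusted p of 7.68e-07 and 4.53e-16.

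Kynu (ENSMUSG00000026866), which cleaves the side chain of hydroxykynurenine, was at 259, 209, 218, 268 and 260 CPM in vehicle. It was at 134, 165, 123, 148 and 165 CPM at 10 μg/kg, and at 108, 27.3, 34.5, 48.9 and 52.3 CPM at 30 μg/kg. All 5 mice lay below every vehicle mouse at 1 μg/kg, at 179 to 205 CPM, and at 3 μg/kg, at 172, 171, 192, 171 and 157 CPM. The log2 fold changes there, -0.38 ± 0.18 and -0.49 ± 0.18, were not called (adjusted p = 0.308 and 0.0804, edgeR). How many of all genes lay below vehicle without overlap at these doses was not counted. The changes of -0.73 ± 0.18 at 10 μg/kg and -2.16 ± 0.19 at 30 μg/kg had edgeR adjusted p of 0.00197 and 3.04e-12.

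Haao (ENSMUSG00000000673), the dioxygenase that forms ACMS and the second most abundant member, had the largest fall of this group at 30 μg/kg. Its levels were 633, 604, 649, 687 and 764 CPM in vehicle, 403, 348, 229, 319 and 437 CPM at 10 μg/kg, and 238, 41.6, 37.9, 65.7 and 100 CPM at 30 μg/kg. Within the 30 μg/kg group the highest mouse stood above the lowest of the 10 μg/kg group, and neither group overlapped vehicle. The groups at 1 and 3 μg/kg, at 441 to 600 and 460 to 561 CPM, also lay below every vehicle mouse. The log2 fold changes there, -0.38 and -0.39, were not called (adjusted p = 0.553 and 0.393, edgeR). The share of all genes without overlap was not counted. The mean fell from 667 ± 61.7 to 96.6 ± 82.7 CPM (SD, n = 5). The log2 fold changes of -0.94 ± 0.26 and -2.79 ± 0.28 (SE) at 10 and 30 μg/kg had edgeR adjusted p of 0.00503 and 7.3e-11.

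**Figure D2:**
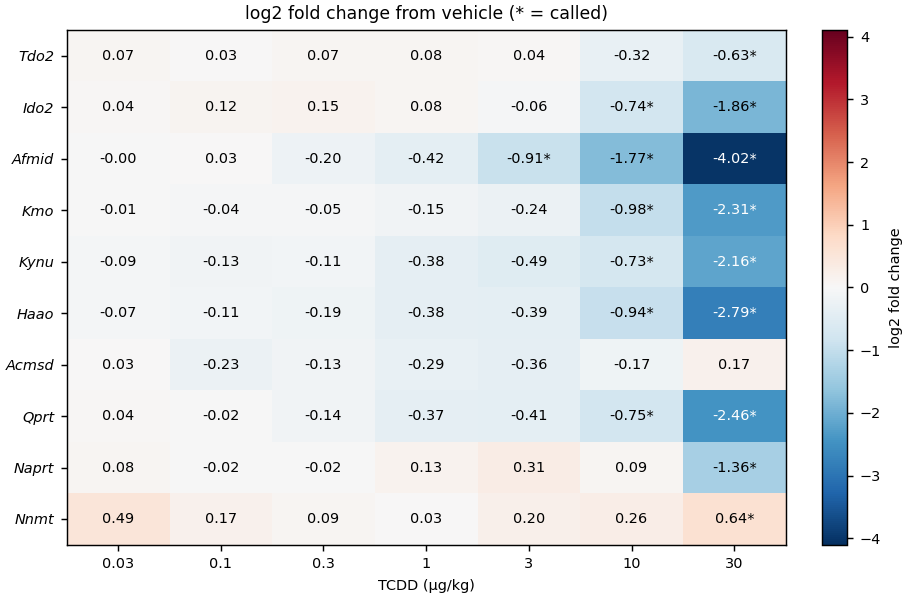
log2 fold change from vehicle of each member (rows) at each TCDD dose in μg/kg (columns), from edgeR's fit of all 40 libraries, where blue is lower, red is higher and an asterisk marks a call. Asterisks appear at 3 μg/kg for Afmid alone (-0.91), then in 6 rows at 10 μg/kg and in every row but Acmsd at 30 μg/kg.

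At the branch point Qprt was repressed and Acmsd was not called, a difference that was not itself tested. Qprt (ENSMUSG00000030674), on the branch toward NAD, measured 219, 227, 239, 237 and 256 CPM in vehicle. It measured 145, 136, 103, 136 and 180 CPM at 10 μg/kg, and 96.5, 21.9, 20.1, 29.4 and 46.0 CPM at 30 μg/kg. Neither group overlapped vehicle, nor did they overlap each other. As for Haao, the mice at 1 μg/kg (158 to 200 CPM) and 3 μg/kg (163 to 206 CPM) were below the vehicle range. The log2 fold changes there, -0.37 and -0.41, were not called (adjusted p = 0.46 and 0.279, edgeR). The log2 fold changes of -0.75 ± 0.22 and -2.46 ± 0.23 (SE) at 10 and 30 μg/kg had edgeR adjusted p of 0.00855 and 2.17e-11. At 10 μg/kg the calls of Ido2 (-0.56), Kynu (-0.63), Haao (-0.76) and Qprt (-0.72) were lost in run 1 alone, and those of Ido2 (-0.54), Kynu (-0.52) and Qprt (-0.55) when libraries were scaled to total counts alone.

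Acmsd (ENSMUSG00000026348), on the branch toward oxidation, measured 46.1, 25.7, 31.3, 42.2 and 29.6 CPM in vehicle and 33.2, 25.5, 27.2, 33.0 and 36.6 CPM at 10 μg/kg. At 30 μg/kg it measured 28.8, 31.1, 49.8, 61.1 and 26.4 CPM. All of these groups overlapped, with 2 mice at 30 μg/kg above every vehicle mouse and none below. The log2 fold change of 0.17 ± 0.19 (SE) at 30 μg/kg was not called (adjusted p = 0.465, edgeR), and its sign was negative in run 1 alone (-0.21) and without replicate 4 of that dose (-0.06). With libraries scaled to total counts alone Acmsd was called higher, at 0.67 (adjusted p = 0.00553, edgeR). A value near 0 with this SE does not show that Acmsd was unchanged.

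The ratio of the branch enzymes was taken within each library and was given no test. On the log2 scale the CPM ratio of Acmsd to Qprt was -2.25, -3.14, -2.93, -2.49 and -3.11 in vehicle. It was -2.12, -2.42, -1.92, -2.05 and -2.30 at 10 μg/kg, and -1.75, 0.51, 1.31, 1.06 and -0.80 at 30 μg/kg. All 5 mice at 30 μg/kg lay above every other mouse of the study, and 3 of them held more Acmsd than Qprt counts. From 0.03 to 3 μg/kg the group means ran from -3.01 to -2.67, close to the vehicle mean of -2.79 ± 0.40 (SD, n = 5). At 30 μg/kg the mean was 0.06 ± 1.30, with the lowest ratio in replicate 1 and the highest in replicate 3. As a geometric mean over the mice, Qprt reads per Acmsd read were 6.90 in vehicle and 0.957 at 30 μg/kg. The arithmetic mean counts at 30 μg/kg were 994 for Qprt and 968 for Acmsd.

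**Figure D3:**
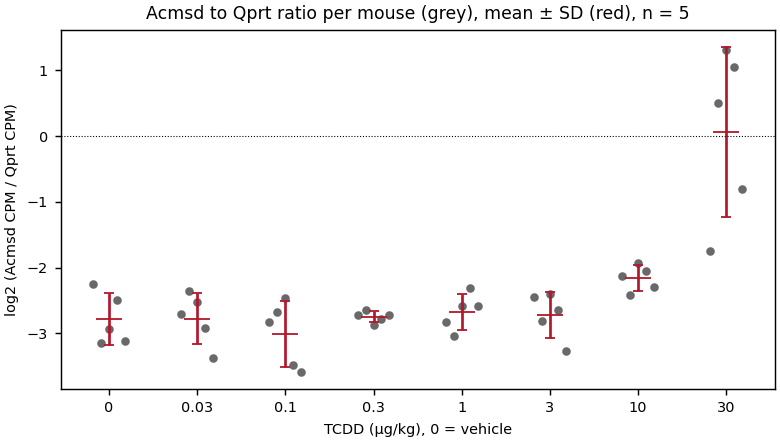
log2 ratio of Acmsd CPM to Qprt CPM (vertical axis) in each mouse (grey) by TCDD dose in μg/kg (0 is vehicle), with the group mean and SD in red (n = 5) and a dotted line where both are equal. Groups up to 3 μg/kg lie around the vehicle mean of -2.79, and the mice at 30 μg/kg run from -1.75 to 1.31.

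Naprt (ENSMUSG00000022574), which opens the route from nicotinic acid and does not use tryptophan, was called lower only at the highest dose. It was at 116, 132, 132, 126 and 139 CPM in vehicle and between 150 and 181 CPM at 3 μg/kg. The mice at 3 μg/kg all lay above every vehicle mouse, though the log2 fold change of 0.31 ± 0.20 was not called (adjusted p = 0.39, edgeR). At 10 μg/kg the levels of 142, 135, 105, 134 and 173 CPM overlapped vehicle on both sides. At 30 μg/kg they were 100, 26.6, 26.2, 38.5 and 59.3 CPM, all below vehicle. The log2 fold change there was -1.36 ± 0.21 (adjusted p = 5.79e-07, edgeR). In the reference annotation 277 exon bases of Naprt are shared with Eef1d on the same strand.

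Nnmt (ENSMUSG00000032271), the methyltransferase that removes nicotinamide, was the only member induced. Its levels were 60.6, 71.1, 79.9, 82.1 and 79.5 CPM in vehicle and 115, 87.7, 105, 153 and 120 CPM at 30 μg/kg. No mouse of the 30 μg/kg group overlapped the vehicle range, and at 10 μg/kg, at 94.7, 89.8, 69.0, 70.3 and 123 CPM, 3 of 5 mice were above it. The mean rose from 74.7 ± 8.88 to 116 ± 24.2 CPM (SD, n = 5), a log2 fold change of 0.64 ± 0.18 (adjusted p = 0.00311, edgeR). This call was just past the fold threshold and was lost in run 1 alone (0.51), without vehicle replicate 1 (0.57) and without replicate 4 of 30 μg/kg (0.50). The slope of Nnmt over the dose steps, 0.040 ± 0.022 (SE), was not called (adjusted p = 0.123, edgeR). Its means at 1, 3, 10 and 30 μg/kg were 76.1, 85.7, 89.4 and 116 CPM. Its mean at 0.03 μg/kg, 105 ± 24.3 CPM, was the second highest of the 8 groups and overlapped both vehicle and 30 μg/kg.

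Steps between neighbouring doses were tested for each gene, and differences between members were not. From 3 to 10 μg/kg Ido2, Afmid and Kmo fell past both thresholds, 3 of 10 members against 2.34% of all genes, with log2 changes of -0.68, -0.86 and -0.74. These 3 calls became 2 in run 2 alone, with libraries scaled by total counts only and without replicate 2 or 3 of 10 μg/kg or replicate 3 or 4 of 3 μg/kg, and 0 in run 1 alone. Kynu, Haao and Qprt changed by -0.24, -0.55 and -0.34 in this step and were not called. From 10 to 30 μg/kg 7 of 10 members fell, against 10.6% of all genes. The step was largest for Afmid (-2.25), followed by Haao (-1.85), Qprt (-1.71), Naprt (-1.46), Kynu (-1.43), Kmo (-1.33) and Ido2 (-1.12). Tdo2 changed by -0.32 (adjusted p = 0.00692, edgeR) and so stayed under the fold threshold. Neither Acmsd (0.34) nor Nnmt (0.38) was called in this step.

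Mice given 30 μg/kg did not respond equally. Replicate 1 of this group held the highest level of 7 of the 8 repressed members, the exception being Tdo2, for which replicate 3 was highest. The sum of the 6 hepatocyte markers was also highest in replicate 1, at 77201 CPM against a range of 36270 to 77201 CPM in its group and 113582 to 138441 CPM in vehicle. Replicates 2 and 3 held the lowest levels of Kmo, Kynu, Haao, Qprt and Naprt. Without replicate 1 the log2 fold changes became larger in size, at -3.45 for Haao, -3.01 for Qprt, -2.58 for Kynu, -2.57 for Kmo, -1.78 for Naprt and -4.57 for Afmid. Tdo2 did not follow this order and was lowest in replicate 4, in which Nnmt and Acmsd were highest.

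**Figure D4:**
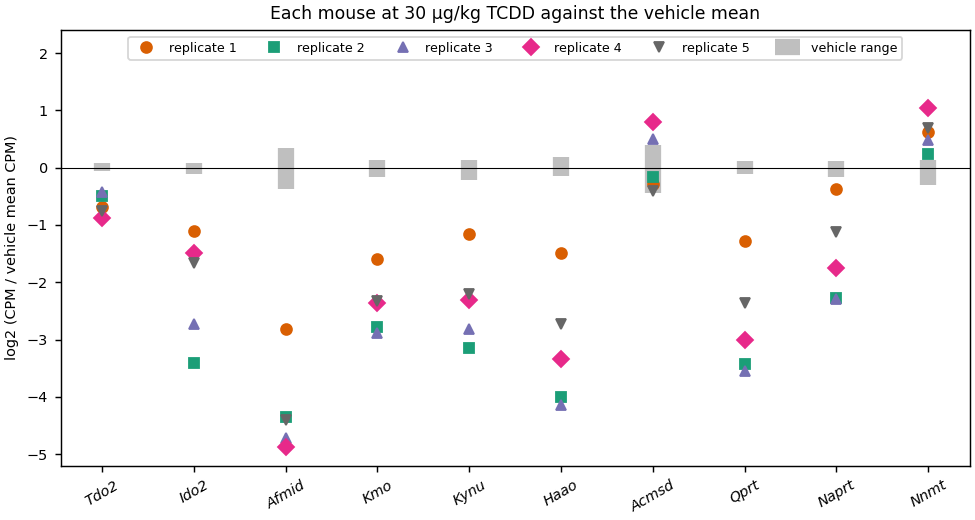
log2 of the CPM of each mouse at 30 μg/kg over the vehicle mean (vertical axis) for each member, with 1 symbol per mouse and the range of the 5 vehicle mice as a grey bar. Replicate 1 (circle) lies nearest to vehicle in Ido2, Afmid, Kmo, Kynu, Haao, Qprt and Naprt, and for Acmsd the mice lie on both sides of 0.

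Per kilobase of exon, on the CPM scale, Tdo2 was the most abundant member in vehicle at 319 ± 15.8, followed by Haao at 143 ± 13.2, Qprt at 89.1 ± 5.23, Kmo at 63.5 ± 5.22 and Naprt at 55.1 ± 3.80 (SD, n = 5). Below them came Nnmt at 47.4 ± 5.63, Kynu at 39.5 ± 4.40, Ido2 at 33.0 ± 2.06, Acmsd at 12.3 ± 3.08 and Afmid at 9.90 ± 1.99. From Kmo to Ido2 the ranges of neighbours overlapped, as did those of Acmsd and Afmid, so these neighbours are not separated in vehicle. Exon bases that Afmid shares with Gm20708, and Naprt with Eef1d, were kept in these lengths. The levels of Afmid and Naprt per kilobase may therefore be too low. Each length joins the exons of all annotated transcripts of a gene and can exceed that of the transcript present. Levels of other members may thus also be too low, and the order of members depends on these lengths. The order at 30 μg/kg was Tdo2 at 205 ± 26.7, Nnmt at 73.8 ± 15.4, Naprt at 21.4 ± 13.3, Haao at 20.6 ± 17.7, Qprt at 16.2 ± 12.0, Acmsd at 13.9 ± 5.38 and Kmo at 12.8 ± 4.97 CPM per kilobase. Ido2, Kynu and Afmid followed at 9.11 ± 4.99, 8.83 ± 5.19 and 0.615 ± 0.450. Nnmt had moved from the sixth to the second place, and from Naprt to Kynu the ranges of neighbours overlapped.

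The summed level of the members was 3077 ± 194 CPM in vehicle, 2121 ± 272 CPM at 10 μg/kg and 1292 ± 187 CPM at 30 μg/kg (SD, n = 5). Tdo2 made up 40.2 ± 0.699% of this sum in vehicle and 62.6 ± 11.5% at 30 μg/kg, although its own level fell. The share of Haao went from 21.7 ± 0.776% to 6.99 ± 4.74%. Nnmt went from 2.42 ± 0.229% to 9.15 ± 2.42%. Acmsd and Qprt, at 1.14 ± 0.291% and 7.66 ± 0.288% in vehicle, held 3.15 ± 1.42% and 3.13 ± 1.78% at 30 μg/kg.

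Over the 8 group means of log2 CPM, which share vehicle and depth with all genes, the members followed each other to different degrees. Pearson's r was 0.998 between Haao and Qprt, 0.997 between Kynu and Qprt, 0.995 between Ido2 and Kmo, 0.934 between Tdo2 and Kynu, and -0.459 between Acmsd and Qprt. Among 7878 named genes with a mean of at least 10 CPM, those most like Tdo2 were Sox5 (r = 0.999), Lonp2 (0.996) and Hyal2 (0.994). Closest to Kmo were Hao1, the peroxisomal glycolate oxidase, the acute phase protein gene Orm1 and Sema4g. Closest to Qprt were H2-Q10, Habp2 and Pnkd. Such values are a description over 8 points, and they compare the shape of a change and not its size. At 30 μg/kg Hao1, Orm1 and Sema4g changed by -10.8, -1.81 and -2.88 on the log2 scale, and Kmo by -2.31. How many genes reach such values of r was not counted.

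The other genes of tryptophan and NAD metabolism were taken from lists of 59 genes, of which 55 were tested. At 30 μg/kg 10 were higher and 23 lower, against 23.2% and 18.9% of all genes, and 22 were not called, with a median log2 fold change of -0.35. Those that act beside the members on kynurenine, or on the oxidative branch after ACMSD, went the same way as the repressed members, since all 7 tested were lower. Aadat, an aminotransferase that diverts kynurenine to kynurenic acid, went from 77.0 ± 8.77 to 7.46 ± 6.98 CPM (SD, n = 5), a log2 fold change of -3.38 (-4.11 without replicate 1 of 30 μg/kg). Kyat1, a kynurenine aminotransferase, changed by -1.80. Aldh8a1, the dehydrogenase that follows ACMSD, went from 366 ± 11.8 to 183 ± 56.8 CPM, a 2.01-fold repression, so the enzyme after Acmsd fell where Acmsd itself was not called. With libraries scaled to total counts alone Aldh8a1 stood at -0.53 and was not called.

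Of 3 genes for other fates of tryptophan, 1 was lower and 2 were not called. Inmt, which methylates tryptamine, fell from 1002 ± 105 to 14.5 ± 27.1 CPM (SD, n = 5), by -6.12 on the log2 scale. Of the mice at 30 μg/kg the highest held 62.8 and the lowest 0.198 CPM, and leaving out 1 mouse at a time gave -8.71 to -5.82, the larger change without replicate 1 of that dose. Most carriers moved the other way, with 5 of 6 transport genes higher and 1 lower at 30 μg/kg, against 23.2% and 18.9% of all genes. Of the 5, Slc6a19 was near the floor, at 0.0398 CPM in vehicle and 0.842 CPM at 30 μg/kg. Slc3a2, the heavy chain of the large neutral amino acid carriers, rose from 52.0 ± 7.06 to 226 ± 17.9 CPM and was called from 1 μg/kg upward, below the lowest dose of any member. Slc7a8, a light chain that pairs with it, rose by 2.65 on the log2 scale. Slc16a10, a carrier of aromatic amino acids, was lower, at -1.50.

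Of 8 salvage and last-step genes of NAD synthesis tested at 30 μg/kg, 2 were higher, 0 lower and 6 not called, against 23.2% higher and 18.9% lower among all genes. Nampt, the rate-limiting enzyme of NAD salvage, rose from 35.1 ± 5.38 to 56.1 ± 16.9 CPM (SD, n = 5), a log2 fold change of 0.68 ± 0.17 (SE; adjusted p = 0.000814, edgeR). Its ranges in vehicle and at 30 μg/kg overlapped, and the call was lost in run 1 alone (0.45), without replicate 2 (0.57) and without replicate 3 (0.52) of 30 μg/kg. Nt5e, an ectonucleotidase that acts on extracellular nucleotides, rose by 1.72. Nmnat1 (-0.21) and Nadsyn1 (-0.17), which catalyse the last steps after QPRT and NAPRT, were not called. Under scaling by total counts only, both took a positive sign, at 0.28 and 0.32, below the all-gene median of 0.52.

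**Figure D5:**
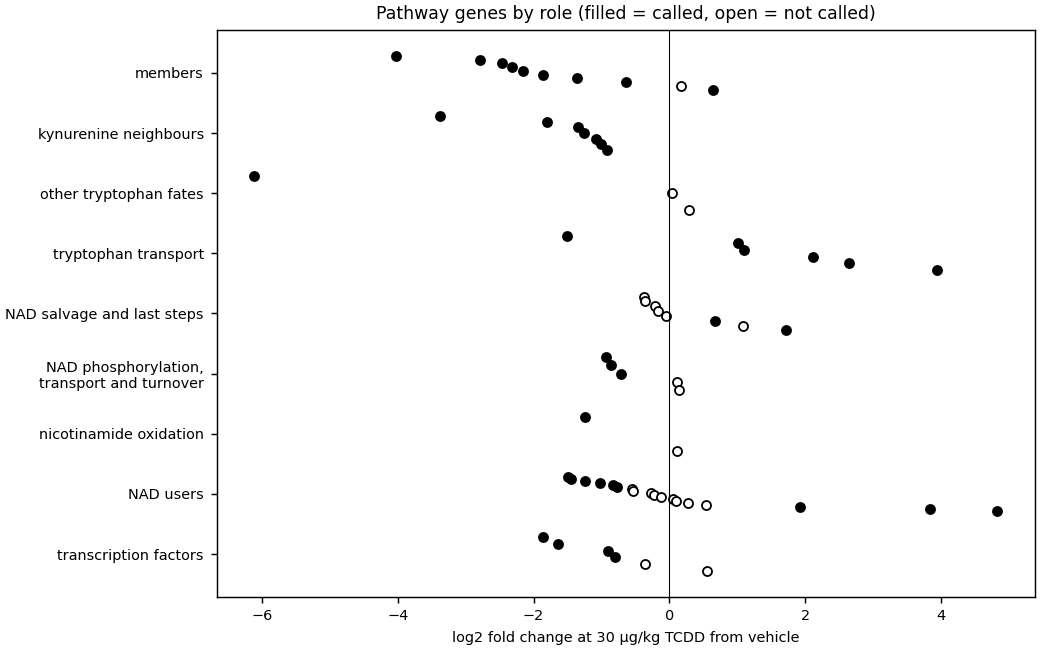
log2 fold change at 30 μg/kg TCDD from vehicle (horizontal axis) of every tested member and of the 55 other genes tested, in rows by role, with filled points for calls and open points for genes not called. All 7 kynurenine neighbours lie left of 0, and 5 of 6 transport genes lie to the right.

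Among 5 genes that phosphorylate, transport or turn over the dinucleotide, 3 were lower. Nadk2, the mitochondrial NAD kinase, changed by -0.86, and Nnt, the mitochondrial transhydrogenase, by -0.93 at a vehicle level of only 1.14 ± 0.411 CPM (SD, n = 5). Nnt lost its call in 12 alternatives, and Nadk2 with libraries scaled to total counts alone (-0.38). Aox3, an aldehyde oxidase and 1 of 2 genes listed for the oxidation of nicotinamide, changed by -1.24. Of 18 genes whose products consume NAD, 3 were higher, 6 lower and 9 not called, beside the same 23.2% and 18.9% of all genes. Tiparp, a mono-ADP-ribosyltransferase and AhR target, rose from 4.97 ± 1.44 to 143 ± 29.4 CPM, and Bst1, an NAD glycohydrolase of blood and stromal cells, from 0.144 ± 0.107 to 2.20 ± 1.28 CPM. The mitochondrial sirtuins Sirt3 and Sirt5 fell by 1.45 and by 1.24 on the log2 scale. Of 6 transcription factors known to act on genes of this pathway, 4 were lower, against 18.9% of all genes, among them Ppara at -1.87 and Cebpa at -1.65. Ahr (0.56) and Hnf4a (-0.36) were not called at 30 μg/kg. Ahr was called higher at 10 μg/kg, at 0.79 (adjusted p = 0.0242, edgeR).

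Cell type markers also changed, some of them from lower doses than any member. The hepatocyte markers Apoa1 and Ttr and the macrophage markers Adgre1 and Csf1r were called from 1 μg/kg. The hepatocyte sum, of which Alb alone made up 83015 CPM in vehicle, lay below its vehicle range at 0.3 μg/kg, at 95540 to 111382 CPM. None of the 6 markers was called at that dose. At 1 μg/kg the sum was also below, at 82112 to 102716 CPM. The means of the sum at 0.3, 1, 3 and 10 μg/kg were 101487, 92900, 95969 and 98951 CPM, without a steady fall. At 10 μg/kg its range of 75161 to 123078 CPM overlapped vehicle. Of the 6 hepatocyte markers, 4 were lower at 10 μg/kg and 5 at 30 μg/kg, against 8.13% and 18.9% of all genes. The median log2 fold changes were -0.80 and -1.71 for these markers and -0.73 and -2.01 for the members. The summed level of the hepatocyte markers was 123484 ± 9441 CPM in vehicle and 53937 ± 17585 CPM at 30 μg/kg (SD, n = 5), and the ranges did not overlap. All 6 macrophage markers were higher at 30 μg/kg, with sums of 97.9 to 137 CPM in vehicle and 266 to 527 CPM at 30 μg/kg. Also higher were 4 of 5 lymphocyte, 2 of 3 dendritic cell, 4 of 5 stellate cell and fibroblast, 2 of 4 endothelial and 3 of 4 cholangiocyte markers. At this dose 23.2% of all genes were higher. The fourth cholangiocyte marker, Sox9, was lower at -0.95 (adjusted p = 0.00392, edgeR), and the cholangiocyte sum of 34.0 ± 34.6 CPM at 30 μg/kg held 1 mouse at 95.8 CPM, beside 15.6 ± 2.05 CPM in vehicle (SD, n = 5). In whole liver, fewer cells of a type and less RNA per cell cannot be told apart. The part of these shifts in the change of each member was not tested.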

How the data were processed

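For each of the 40 livers the authors deposited STAR's raw counts, of which the unstranded column was used, and a table of normalized log2 values. Total RNA (integrity number of at least 7) had been sequenced as 150 bp paired-end reads. The submitters' processing notes name FastQC 0.11.7, Trimmomatic 0.39, STAR 2.7.3a and the builds GRCm39 and mm10, without saying which was used for the counts. Groups came from the dose labels.

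The counts were fitted with edgeR 4.0.16 (R 4.3.3). Genes passing filterByExpr (minimum count 10, minimum total count 15) were scaled with TMM factors (trimmed mean of M-values) and fitted by quasi-likelihood with 1 mean per group over all 40 libraries, with Benjamini-Hochberg adjustment over all 15373 genes. The study's fold threshold of 1.5 was kept, and an adjusted p under 0.05 took the place of its posterior probability. The slope was fitted over dose steps 0 to 7. The fit was tested on simulated data. Lengths and exon overlaps came from GENCODE M21, which named 52083 of 55359 identifiers. A gene symbol with more than 1 identifier (Nnt) was represented by the one with most counts. Promoters came from RefSeq. Among 80 replicate pairs none was a copy (chi-square of 10.2 or more per degree of freedom).

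The members, lists and tests were chosen with earlier results of these data known. Named were all 10 members, 6 genes that act beside them (Ido1, Aadat, Aldh8a1, Nampt, Nmnat1 and Nadsyn1), up to 2 of the largest rises and 2 of the largest falls called per list with at least 1 mean CPM in the higher group, and the genes most like Tdo2, Kmo and Qprt. Pairs of members quoted for likeness were picked after their values were seen. Ahr and Hnf4a were named as the transcription factors not called at 30 μg/kg. Alternatives were DESeq2 1.42.0, limma 3.58.1 on the log2 values deposited by the authors, other size factors, total counts alone, other filters, fits of vehicle with 1 dose, each numbering run alone or run as a covariate, a strand-specific column, no fold threshold and leaving out each library.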

Additional observations from a re-analysis of the deposited data

Results flagged for a closer look

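Of 80 groups of 5 mice checked, 1 for each member and dose, 5 held a mouse whose gap to the nearest other mouse was more than 0.71 of the range of the group, and chance flags about 1 in 20. Afmid in replicate 1 of 30 μg/kg stood at 5.00 CPM, above the next mouse at 1.71 CPM, and the same mouse held the highest level of 7 of the 8 repressed members. Kmo in replicate 5 of 0.1 μg/kg was lowest at 264 CPM, below the next at 296 CPM. Kmo in replicate 2 of 3 μg/kg was highest at 320 CPM, above the next at 243 CPM. Kynu in replicate 3 of 1 μg/kg was highest at 205 CPM, above the next at 185 CPM. Acmsd in replicate 3 of 0.3 μg/kg was lowest at 27.4 CPM, below the next at 32.1 CPM.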

How the results depend on the processing

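Under scaling by total counts only, the median log2 fold change of all genes became 0.08 at 3 μg/kg, 0.22 at 10 μg/kg and 0.52 at 30 μg/kg, 3 members were lower at 10 μg/kg, and 7 were lower and 2 higher at 30 μg/kg. The signs of Ido2 at 3 μg/kg (0.0231), Acmsd at 10 μg/kg (0.0273), Nmnat1 (0.28) and Nadsyn1 (0.32) at 30 μg/kg turned positive, though each value stayed below that median, and Nadk2 lost its call (-0.38). In run 1 alone, with 19 libraries, 0 members were called at 3 μg/kg, 2 at 10 μg/kg, 0 in the step from 3 to 10 μg/kg and 2 in that from 10 to 30 μg/kg, and Acmsd at 30 μg/kg was -0.21. Lower calls among all genes went in run 1 from 341 to 174, from 1250 to 712, from 360 to 51 and from 1623 to 355 in the same order. In run 2 alone Tdo2 at 3 μg/kg was -0.10. A mean of at least 50 counts put Tdo2 at 30 μg/kg at -0.58, under the fold threshold. Leaving out 1 mouse at a time gave 8 to 9 calls at 30 μg/kg and did not move the counts at 3 and 10 μg/kg. It turned the sign of values that were not called, with ranges of -0.0260 to 0.0747 for Tdo2 at 3 μg/kg (without replicate 3), -0.0602 to 0.292 for Acmsd at 30 μg/kg (without replicate 4) and -0.00278 to 0.178 for Naprt at 10 μg/kg (without replicate 5). The Acmsd to Qprt log2 ratio at 30 μg/kg ran from -0.25 to 0.52. DESeq2 gave no adjusted p for Inmt. The causes were not tested. No paired analysis was possible because replicate numbers were given in order of accession and tie no mouse of a group to a mouse of another. With 5 mice a group, changes of the size of their SE are not resolved for genes that were not called.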
